A study of Mus musculus with 6 samples.

Results

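The genes described here encode the factors that start and extend translation: the eukaryotic initiation factors (eIFs) and elongation factors (eEFs). They were taken as the protein-coding rows of the deposited comparison whose symbol begins with Eif1 to Eif6, Eef1 or Eef2, without the Eif4ebp and Eif2ak genes, which encode regulators of initiation. This gave 57 genes of 39527 in the table. Of the 57, 54 had an adjusted p-value and are called tested below, and Eef1a2, Eif4e1b and Eif2s3y, with means of 1.54, 1.24 and 1.21 normalized counts in the authors' deposited table, did not. RNA was sequenced from group 2 innate lymphoid cells (ILC2s), tissue lymphocytes of type 2 immunity, sorted from mouse lung on completion of a 4-day course of IL-33, an epithelial cytokine that activates these cells. The 2 groups were R5/+ mice (WT) and R5/+LKB1f/f mice (KO), with 3 samples each, and every sample pooled 3 to 4 mice. Both groups carried R5 and both received IL-33. The labels neither describe the R5 allele nor name the Cre that acts on the floxed LKB1 alleles, and they give no age. LKB1, encoded by Stk11, is the kinase that activates AMPK, which restrains protein synthesis through the kinase complex mTORC1.

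Translation starts when eIF2, bound to GTP, brings the initiator tRNA to a small ribosomal subunit that carries eIF1, eIF1A and the large scaffold eIF3. The complex eIF4F, made of the cap-binding eIF4E, the scaffold eIF4G and the helicase eIF4A, recruits the mRNA, and eIF5 and eIF5B complete the joining of the large subunit. During elongation eEF1A delivers aminoacyl-tRNAs, the eEF1B subunits recharge it with GTP, eEF2 moves the ribosome along, and eIF5A relieves stalls. Activated lymphocytes raise this machinery as they grow and divide.

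Values are those of the authors' comparison, with 1 log2 fold change and 1 standard error (SE) per gene over the libraries of their fit. Values for single samples are not given because the per-sample columns carried names that matched no label. Which genotype was the numerator is not stated, so each sign is given as deposited. Stk11 (ENSMUSG00000003068, mm10 chromosome 10, 80115803 to 80130682), the gene floxed in KO, had a log2 fold change of -1.34 ± 0.30 (SE, adjusted p = 0.000103) in the authors' deposited table. A negative sign below is thus the sign that Stk11 carried, and deletion would lower Stk11 in KO. Genes are called at an adjusted p below 0.05, the authors' adjustment over 14961 tested genes. Intervals are 95% intervals computed from the SE under a normal distribution. In bulk RNA, fewer cells of a type and less RNA per cell cannot be told apart. All 10 ILC2 markers examined were tested, with Gata3 at a mean of 44552 normalized counts and Il1rl1 at 16936 in the authors' deposited table. Of the 10, 2 were positive (Gata3 at 0.63 and Icos at 0.54) and 2 negative (Il13 at -1.06 and Klrg1 at -0.44) in the authors' deposited table. Of all tested genes, 11.0% were positive and 13.5% negative. Genes used as markers of other cells were examined too. Of 5 T cell markers 4 were tested (means from 102.9 to 1605), with all 5 of B and plasma cells (76.3 to 939.2), all 5 of myeloid cells (13.3 to 4469), 1 of 3 of mast cells and basophils (1088 for Cpa3, with Ms4a2 and Mcpt8 at 3.52 and 3.31) and all 6 of epithelium, endothelium and fibroblasts (54.8 to 7594) in the authors' deposited table. Whether this RNA came from other cells or from the ILC2s was not tested. Of these 21 tested markers, 6 were called (Trat1, Cd3g, Cd79b, Jchain, C1qa and Pdgfrb), all negative. Calls of either sign were made for 24.5% of all tested genes. The part of these markers in the values of the translation factors was not tested.

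Translation factors were mostly negative. Of the 54 tested members, 47 had a log2 fold change below 0 and 7 above it. Values below 0 were held by 50.4% of all tested genes and 53.4% of the most abundant 25%. Among the shortest 25% of protein-coding genes the share was 67.3%. The threshold was passed by 25 negative members (46.3%) and 1 positive member, and by 24.5% of all tested genes (13.5% negative, 11.0% positive). Tested members had a median log2 fold change of -0.34, compared with -0.01 for all tested genes. The differences were modest in size: the largest, that of Eif5a, was a ratio of 0.569, only 9 called negative members differed by at least 1.5-fold, and 0 members reached 2-fold. A fold of at least 1.5 beside the threshold was met by 8.70% of all tested genes in the negative and 7.57% in the positive direction. At an adjusted p below 0.01, 15 members were negative and 0 positive, against 9.00% and 6.79% of all tested genes. Abundance bears on how many genes can be called, and 40 members were among the most abundant 25% of tested genes. Of these 40, 21 were negative and 0 positive, against 23.4% negative and 16.4% positive among all genes of that abundance. Among protein-coding genes, 14.7% were negative and 11.3% positive. Under 5 other call rules, between 21 and 28 members were negative and 1 positive. The share of genes called negative and positive was 16.3% and 13.9% at an adjusted p below 0.1, 4.03% and 3.20% with adjustment over every gene with a p-value, and 14.9% and 11.6% over protein-coding genes alone. It was 20.0% and 15.5% among genes with a mean of at least 100 normalized counts, and 12.0% and 12.4% with fold changes centred on the most abundant 25% of genes.

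**Figure D1:**
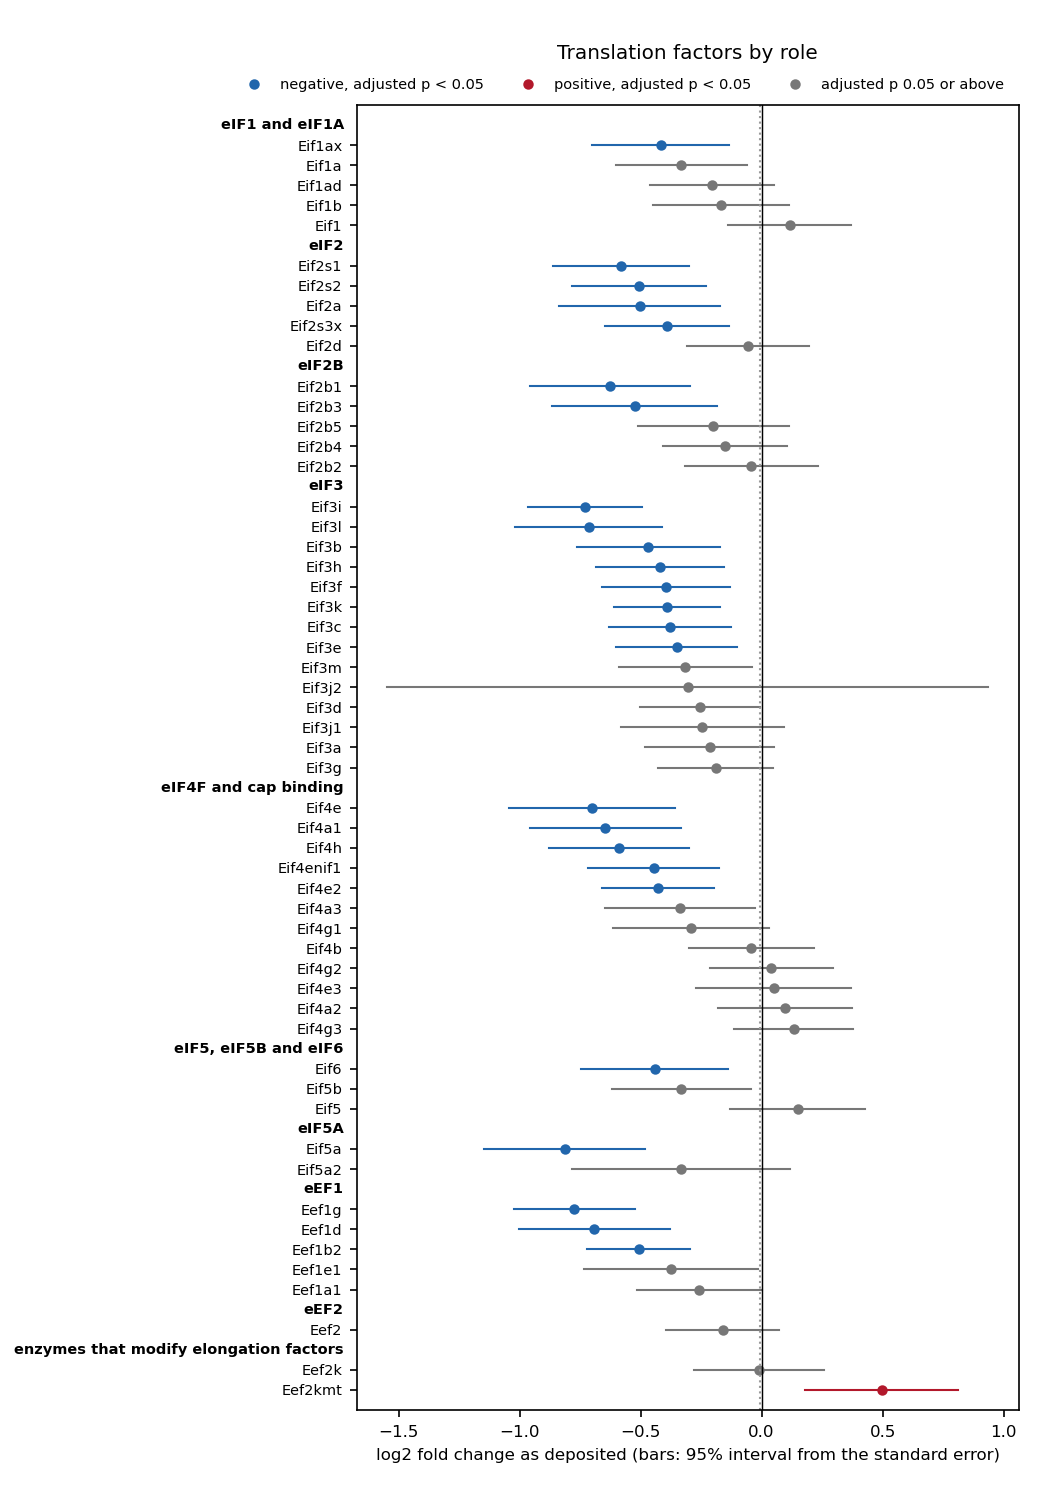
Log2 fold change as deposited (horizontal axis, points, with 95% intervals as bars) for the 54 tested members, grouped by role; the dotted line is the median of all tested genes. The 25 negative members are blue, Eef2kmt is the only red point, and the 28 members in grey did not pass the threshold.

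Members also differed among themselves. Their log2 fold changes had a standard deviation of 0.269, beside a median SE of 0.141. The intervals of 6 members (Eif5a, Eef1g, Eif3i, Eif3l, Eif4e and Eef1d) lay wholly below the median of the members. Those of 11 (Eif2d, Eif2b2, Eif4b, Eef2k, Eif4g2, Eif4e3, Eif4a2, Eif1, Eif4g3, Eif5 and Eef2kmt) lay wholly above it. These 2 sets were found by their values and were given no test.

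**Figure D2:**
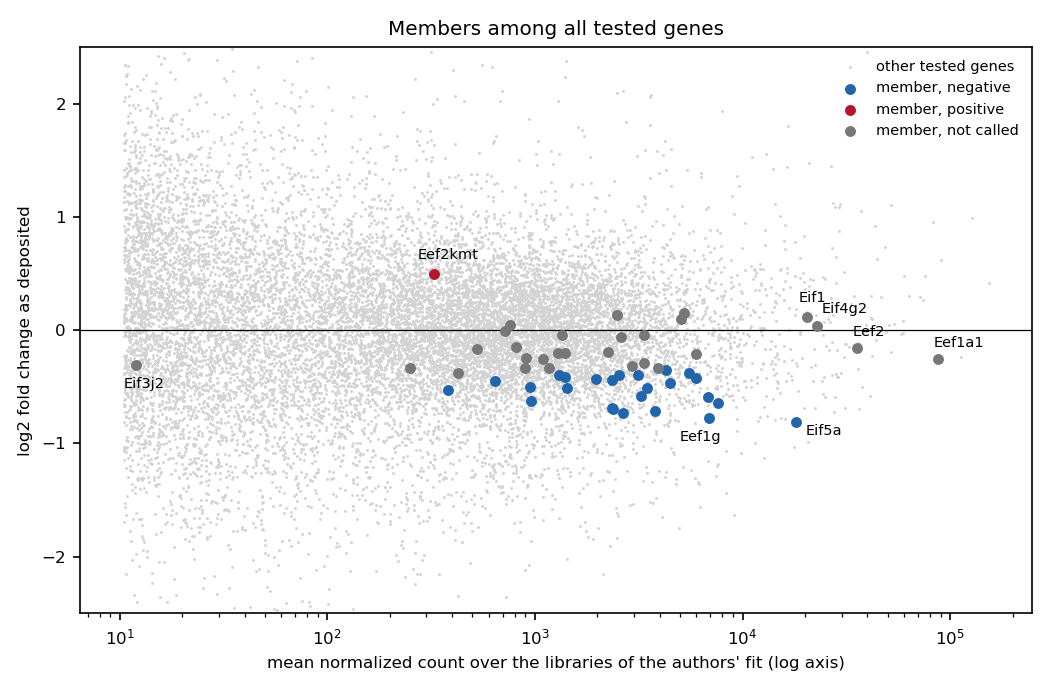
Mean normalized count (horizontal log axis) against log2 fold change as deposited (vertical axis) for tested genes in grey and members in colour, with the axis limited to 2.5 on either side of 0. Members with means from 328.3 normalized counts upward make up all called members, and the most abundant ones, Eef1a1 and Eef2, lie at -0.26 and -0.16.

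The initiator tRNA carrier eIF2 was negative in all 3 of its subunit genes, against 13.5% of all tested genes. Eif2s1, which encodes the alpha subunit that stress kinases phosphorylate, had -0.58 ± 0.14 (adjusted p = 0.000561) in the authors' deposited table. Eif2s2, the beta subunit, had -0.51 ± 0.14 (adjusted p = 0.00281) and Eif2s3x, the GTP-binding gamma subunit encoded on X, -0.39 ± 0.13 (adjusted p = 0.0157) in the authors' deposited table. The Y-linked copy Eif2s3y had a mean of 1.21 normalized counts, against 1300 for Eif2s3x, and no adjusted p in the authors' deposited table. Eif2a, a separate factor that can also bring initiator tRNA to the ribosome, had -0.50 ± 0.17 (adjusted p = 0.0171) in the authors' deposited table. Eif2d, another non-canonical initiator tRNA factor, had -0.06 with an interval from -0.31 to 0.19.

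The exchange factor eIF2B, which returns eIF2 to its GTP-bound form, was negative in 2 of 5 subunit genes, against 13.5% of all tested genes. Eif2b1, the alpha subunit of its regulatory part, had -0.63 ± 0.17 (adjusted p = 0.0019) and Eif2b3, the gamma subunit of its catalytic part, -0.52 ± 0.17 (adjusted p = 0.0148) in the authors' deposited table. Eif2b5, which holds the catalytic domain, had -0.20 ± 0.16, and Eif2b4 and Eif2b2 had -0.15 and -0.04 in the authors' deposited table. All 5 lay below 0, as did 50.4% of all tested genes, and the intervals of the last 3 held 0.

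The scaffold eIF3 lay below 0 in all 14 genes and was negative in 8. Among all tested genes, 50.4% lay below 0 and 13.5% were negative. Eif3i, a WD-repeat subunit, had -0.73 ± 0.12 (adjusted p = 6.97e-08), the smallest adjusted p among members, in the authors' deposited table. Eif3l had -0.71 ± 0.15 (adjusted p = 6.63e-05) and Eif3b, the subunit that holds Eif3i and Eif3g in the complex, -0.47 ± 0.15 (adjusted p = 0.0115) in the authors' deposited table. The other negative members were Eif3h, Eif3f, Eif3k, Eif3c and Eif3e, between -0.42 and -0.35 in the authors' deposited table. Of the 8 subunits that form the structural octamer (a, c, e, f, h, k, l and m), 6 were negative, and the median of the 8 was -0.38. Once fold changes had been freed of their trends with exonic length and GC content, 4 eIF3 genes were negative in place of 8. The negative share of all genes in that fit was 11.5%. The 4 were Eif3e and Eif3l of the octamer, with Eif3b and Eif3i. Eif3h then stood at -0.17. Eif3a, the largest subunit, with 5946 normalized counts, had -0.21 ± 0.14 and Eif3m -0.32 ± 0.14, neither past the threshold, in the authors' deposited table. Eif3g had -0.19 ± 0.12 and the cap-contacting subunit gene Eif3d -0.25 ± 0.13 in the authors' deposited table. The near-identical genes Eif3j1 and Eif3j2 had -0.25 and -0.31 in the authors' deposited table. Of the 50-base windows of the Eif3j2 transcript, 91.9% also occurred in another gene, chiefly Eif3j1, so that the value of Eif3j2, at a mean of 12.0 normalized counts, is uncertain.

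Within eIF4F the main cap-binding and helicase genes were negative, and 0 of the 3 scaffold genes passed the threshold. Of the 12 tested genes of eIF4F and cap binding, 5 were negative, against 13.5% of all tested genes. Eif4e, which binds the mRNA cap and is the limiting target of the 4E-binding proteins, had -0.70 ± 0.17 (adjusted p = 0.000707) in the authors' deposited table. Eif4a1, the main helicase gene, had -0.65 ± 0.16 (adjusted p = 0.000567), and Eif4h, a helicase cofactor, -0.59 ± 0.15 (adjusted p = 0.000727) in the authors' deposited table. Eif4e2, a cap-binding protein that mostly represses translation, had -0.43 ± 0.12, and Eif4enif1, the transporter that carries eIF4E to the nucleus and to P-bodies, -0.45 ± 0.14, both past the threshold, in the authors' deposited table. The scaffolds gave -0.29 ± 0.16 for Eif4g1, 0.04 ± 0.13 for Eif4g2 and 0.13 ± 0.13 for Eif4g3 in the authors' deposited table, and the intervals of all 3 held 0. The interval of Eif4g1, from -0.61 to 0.03, overlapped those of Eif4e and Eif4a1. With the length and GC trends taken out, Eif4g1 had -0.40, still without a call. The second helicase gene Eif4a2 had 0.10 ± 0.14, with an interval from -0.18 to 0.37 against -0.96 to -0.33 for Eif4a1. Eif4a3, which belongs to the exon junction complex, had -0.34 ± 0.16 (adjusted p = 0.105) in the authors' deposited table. Eif4b, the other helicase cofactor, had -0.04 ± 0.13 and the cap-binding paralogue Eif4e3 0.05 ± 0.16 in the authors' deposited table. Differences between paralogues were not tested, since the errors of genes measured in the same libraries are not independent.

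For eIF1, eIF1A, eIF5, eIF5B and eIF6, which act in scanning, start codon choice and subunit joining, 8 genes were tested. Of these 8, Eif1ax and Eif6 were negative, against 13.5% of all tested genes and 23.4% of the most abundant 25%. With the length and GC trends taken out, Eif6 no longer passed and Eif5b was negative (-0.41). Eif1, the gatekeeper of start codon choice, had 0.12 ± 0.13 and its paralogue Eif1b -0.17 ± 0.14 in the authors' deposited table. Eif1ax had -0.42 ± 0.14 (adjusted p = 0.0196) and its autosomal copy Eif1a -0.33 ± 0.14 (adjusted p = 0.0636) in the authors' deposited table. Eif1ad, a gene related to these in sequence, had -0.20 ± 0.13 in the authors' deposited table. Eif5, the GTPase activator of eIF2, had 0.15 ± 0.14 and Eif5b, the GTPase of subunit joining, -0.33 ± 0.15 (adjusted p = 0.0859) in the authors' deposited table. Eif6, which keeps free large subunits from joining, had -0.44 ± 0.15 (adjusted p = 0.0218) in the authors' deposited table.

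The largest difference of all members was that of Eif5a (ENSMUSG00000078812, mm10 chromosome 11), which encodes the elongation factor modified with hypusine. It had -0.81 ± 0.17 (adjusted p = 3.4e-05) at a mean of 18008 normalized counts in the authors' deposited table. Its interval ran from -1.15 to -0.48. The paralogue Eif5a2, at a mean of 250.3 normalized counts, had -0.33 ± 0.23 (adjusted p = 0.309) in the authors' deposited table.

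Among elongation factors the 3 genes of the exchange complex eEF1B were negative, while Eef1a1, whose product they recharge, did not pass, nor did Eef2. Of all tested genes 13.5% were negative. Eef1g, the gamma subunit, had -0.77 ± 0.13 (adjusted p = 7e-08), Eef1d, the delta subunit, -0.69 ± 0.16 (adjusted p = 0.000192) and Eef1b2, the beta subunit, -0.51 ± 0.11 (adjusted p = 6.34e-05) in the authors' deposited table. Eef1a1, the tRNA carrier, had -0.26 ± 0.13 (adjusted p = 0.149) at 87512 normalized counts, and Eef2, the translocase, -0.16 ± 0.12 (adjusted p = 0.348) at 35607 in the authors' deposited table. Their intervals ran from -0.52 to 0.003 and from -0.39 to 0.07, and both held 0. Both intervals overlapped those of Eef1b2 and Eef1d, and that of Eef1g lay wholly below them. The differences between these genes were not tested. Eef1e1, a scaffold of the tRNA synthetase complex, had -0.37 ± 0.18 (adjusted p = 0.126) in the authors' deposited table. The muscle and brain paralogue Eef1a2 was near 0 counts. Reads can be shared with copies: 64.3% of the 50-base windows of the Eef1g transcript and 59.2% of those of Eef1a1 also occurred in other annotated genes, so that both values are uncertain where the authors' counting could split reads. The same holds for Eif3j1 (39.8%), Eif2s3x (36.2%), Eif4a1 (33.3%), Eif1 (31.6%), Eif3h (26.2%), Eif4a3 (24.4%), Eif3m (13.5%), Eif4e3 (12.3%) and Eif4a2 (11.5%). The pseudogene Eif4a-ps4, which shared 30.0% of the windows of Eif4a1, had -0.63 ± 0.25 (adjusted p = 0.0528) in the authors' deposited table.

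The only positive member was Eef2kmt, the methyltransferase that modifies eEF2. It had 0.50 ± 0.16 (adjusted p = 0.0129) at a mean of 328.3 normalized counts in the authors' deposited table. Eef2k, the kinase that inactivates eEF2 and is itself regulated by AMPK and mTORC1 signalling, had -0.01 ± 0.14, with an interval from -0.28 to 0.26, in the authors' deposited table.

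**Figure D3:**
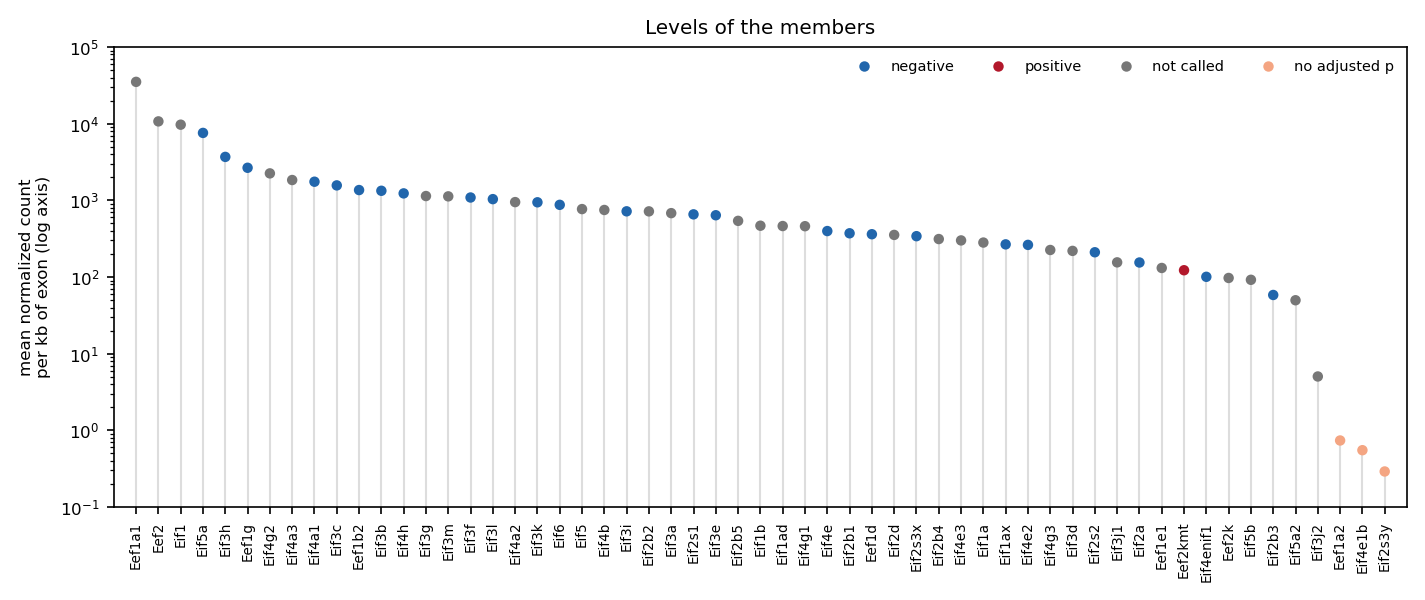
Mean normalized count per kilobase of exon (vertical log axis) for all 57 members in falling order, coloured by call. Eef1a1, Eef2, Eif1 and Eif5a lead, and Eef1a2, Eif4e1b and Eif2s3y, which had no adjusted p, are lowest.

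Levels between genes were compared per length, as the mean normalized count per kilobase of annotated exon over all libraries. Eef1a1 stood at 35103, Eef2 at 10712, Eif1 at 9702 and Eif5a at 7576, and these 4 genes held 63.3% of the summed level of all members. Eif5a was the only one of the 4 that was called. The highest eIF3 gene was Eif3h, at 3688. Eif4g2, at 2247, was the highest eIF4G gene, against 460.1 for Eif4g1 and 225.2 for Eif4g3. Eif4a1 (1750) stood near Eif4a3 (1841) and above Eif4a2 (948.6), and Eif4e (397.6) above Eif4e3 (300.2) and Eif4e2 (262.5). These levels have no error over samples, so that the order of close neighbours was not tested. Across the 54 tested members the mean count and the log2 fold change gave a Spearman rho of -0.119, a description over genes of the same libraries.

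Fold changes in this comparison followed gene length. The Spearman rho of log2 fold change with exonic length was 0.263 over 13036 protein-coding genes, and the median was -0.24 for the 25% of genes with the least exon and 0.15 for the 25% with the most. Over the 54 tested members rho was 0.006. Among the shortest 25% of genes 7 of 20 tested members were negative, against 23.6% of all genes in that class. In the middle 50%, 17 of 26 were negative, against 14.1%, and in the longest 25% 1 of 8, against 6.96%. Once the fold changes had been freed of their trends with length and GC content, 20 members were negative and 1 positive, against 11.5% and 11.2% of all genes in that fit, and the median of the members was -0.26. Eif5b (-0.41) joined the negative members, while Eif2s3x, Eif3c, Eif3f, Eif3h, Eif3k and Eif6 no longer passed. Eif4e, Eif4a1, Eif4h, Eif5a, Eif3i, Eif3l, Eef1g and Eef1d remained negative, between -0.72 and -0.56.

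**Figure D4:**
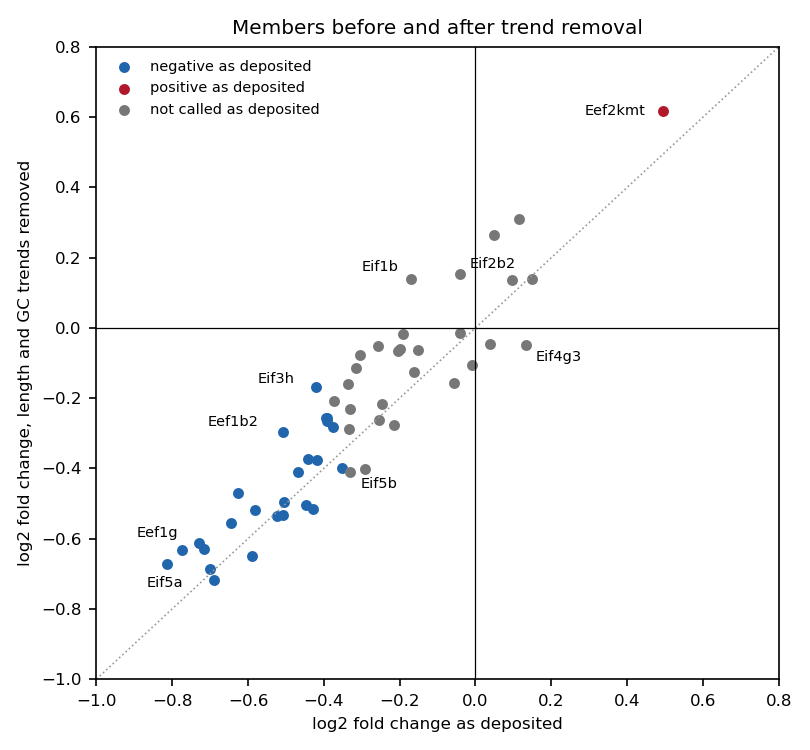
Log2 fold change as deposited (horizontal axis) against the value freed of length and GC trends (vertical axis) for the 54 tested members; the dotted line marks equal values. Above the line lie 38 members and below it 16, and the members most negative as deposited stayed below -0.5 on the vertical axis, among them Eif5a, Eef1g and Eif3i.

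The 4 proliferation markers examined had the same sign. All were called negative, against 13.5% of all tested genes and 23.4% of the most abundant 25%, to which these markers belong. Ccnb2 had -1.64 ± 0.20, Top2a -1.36 ± 0.20, Mki67 -1.24 ± 0.19 and Mcm2 -1.07 ± 0.21 in the authors' deposited table. The part of these 4 markers in the values of the translation factors was not tested.

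Promoter sequences are shown because many members shared 1 sign, and matches are descriptions, not sites of binding. RefSeq promoters on GRCm38.p6, from 250 bases before to 50 after the annotated start, matched 45 members by symbol, in 59 windows, and 9975 tested protein-coding genes. The E-box CACGTG, the site of MYC and related factors, searched on both strands, was in 12 of 45 members (26.7%), against 11.4% of the tested protein-coding genes and 8.09% of all 27025 genes in the table. It was in 6 of 18 members called negative and in 6 of 24 tested members that were not called. These shares were not tested. The negative members Eif2b3, Eif3e, Eif3h, Eif3i, Eif6, Eef1d and Eef1g had no promoter window and are not among the 18. Of the 6 negative members with the motif, Eif3f and Eif3k no longer passed with the length and GC trends taken out. The following stretches, on the strand of the gene and 5′ to 3′, give 1 match each for the 6 called members and for 3 that were not called (Eef2, Eif4g1 and Eif1b), with the motif in capitals.
Eif5a (chr11:69921438-69921477, minus strand): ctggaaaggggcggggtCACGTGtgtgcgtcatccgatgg
Eif4e (chr3:138527187-138527226, plus strand): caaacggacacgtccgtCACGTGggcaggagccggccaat
Eif4a1 (chr11:69672590-69672629, minus strand): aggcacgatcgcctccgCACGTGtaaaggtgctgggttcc
Eif4h (chr5:134639483-134639522, minus strand): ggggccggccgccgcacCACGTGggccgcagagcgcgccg
Eif3f (chr7:108934330-108934369, plus strand): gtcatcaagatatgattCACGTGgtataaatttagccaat
Eif3k (chr7:28981910-28981949, minus strand): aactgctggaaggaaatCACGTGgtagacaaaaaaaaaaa
Eef2 (chr10:81176571-81176610, plus strand): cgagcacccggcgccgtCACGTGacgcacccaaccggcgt
Eif4g1 (chr16:20672656-20672695, plus strand): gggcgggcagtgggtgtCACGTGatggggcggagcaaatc
Eif1b (chr9:120492565-120492604, plus strand): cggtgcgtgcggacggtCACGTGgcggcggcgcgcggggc

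The matches lay 24 to 189 bases before the annotated start in these stretches. Of the 5 negative genes of eIF4F and cap binding, Eif4a1, Eif4e and Eif4h held the motif, and the windows of Eif4e2 and Eif4enif1 had 0 matches. Of the scaffold genes, none of which was called, Eif4g1 held it, the windows of Eif4g3 had 0 matches, and Eif4g2 had no promoter window. The ETS site CCGGAAG, on both strands, was in 15 of 45 members (33.3%), against 19.4% of the tested protein-coding genes. It was in 7 of 18 called negative and in 8 of 24 not called. Of the 7, Eif3c no longer passed with the length and GC trends taken out. Matches are shown for 5 negative members, with the motif or its reverse complement in capitals.
Eif5a (chr11:69920662-69920702, minus strand): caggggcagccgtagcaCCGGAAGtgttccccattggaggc
Eif3l (chr15:79075171-79075211, plus strand): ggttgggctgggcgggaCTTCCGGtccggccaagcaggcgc
Eef1b2 (chr1:63176815-63176855, plus strand): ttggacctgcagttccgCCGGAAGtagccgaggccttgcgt
Eif4e2 (chr1:87213899-87213939, plus strand): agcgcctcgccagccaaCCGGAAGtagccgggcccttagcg
Eif3c (chr7:126566377-126566417, minus strand): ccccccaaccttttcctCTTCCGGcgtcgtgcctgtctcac

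In Eef1b2 and Eif4e2 the site began 2 and 6 bases after an annotated start, and in the other 3 it lay before the start. Overlaps of an E-box with an ETS match numbered 0 among members. Windows of members had a median of 62.3% GC, against 60.3% for tested protein-coding genes, its part in the shares was not tested, and a gene with several windows, such as Eif5a with 6, had more chances of a match. Many mRNAs of the translation machinery begin with a C followed by pyrimidines, a form that mTORC1 and the protein LARP1 use to control their translation. A C followed by at least 4 pyrimidines at the annotated start, on the strand of the gene, was found in 2 of 45 members, Eif2s3x and Eif3f, against 2.92% of the tested protein-coding genes. Both were called negative, and neither passed with the length and GC trends taken out (-0.27 for Eif2s3x and -0.26 for Eif3f). They are shown from 60 bases before to 15 after the annotated start, beside Eef1a1, whose run from the start begins with T. In each of these genes the annotated start falls inside a longer pyrimidine run. The search asked for a C at the annotated base alone, so an mRNA that starts at another base could be missed. Members without a promoter window were not searched. The count of 2 is thus not a count of the members whose mRNAs have this form. The pyrimidine run from the start is in capitals.
Eif2s3x (chrX:94212637-94212711, minus strand): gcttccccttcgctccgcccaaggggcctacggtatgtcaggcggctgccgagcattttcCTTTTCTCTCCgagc
Eif3f (chr7:108934355-108934429, plus strand): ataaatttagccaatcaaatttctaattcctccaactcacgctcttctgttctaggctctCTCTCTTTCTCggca
Eef1a1 (chr9:78481710-78481784, minus strand): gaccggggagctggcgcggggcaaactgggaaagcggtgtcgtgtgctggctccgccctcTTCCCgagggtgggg

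The amino acid response element core TGATGCA, on both strands, was in 1 of 45 members, the untested Eef1a2, against 2.50% of the tested protein-coding genes.

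The regulators of initiation held calls of both signs. Of 26 tested genes in this list, 7 were negative (26.9%) and 3 positive (11.5%), against 13.5% and 11.0% of all tested genes, and their median was -0.04. Pdcd4, an inhibitor of the eIF4A helicase, had 0.73 ± 0.15 (adjusted p = 2.42e-05) and Ppp1r15a, the stress-induced subunit that directs dephosphorylation of eIF2 alpha, 0.72 ± 0.15 (adjusted p = 3.01e-05) in the authors' deposited table. Ppp1r15a was the most abundant gene of the list, with 26959 normalized counts in the authors' deposited table. The poly(A)-binding protein gene Pabpc4 had -0.74 ± 0.19 (adjusted p = 0.00115) and Larp1, the repressor of pyrimidine-start mRNAs, -0.62 ± 0.18 (adjusted p = 0.00332) in the authors' deposited table. The 2 kinases of eIF4E had opposite signs, Mknk1 0.53 ± 0.16 and Mknk2 -0.53 ± 0.19, both past the threshold, in the authors' deposited table. The 4 kinases of eIF2 alpha (Eif2ak1 to Eif2ak4) lay between -0.12 and 0.13, and Eif4ebp1 and Eif4ebp2, which bind eIF4E, had -0.18 and 0.18, all without a call, in the authors' deposited table. Atf4, the transcription factor made when eIF2 alpha is phosphorylated, had -0.04 ± 0.13 in the authors' deposited table.

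**Figure D5:**
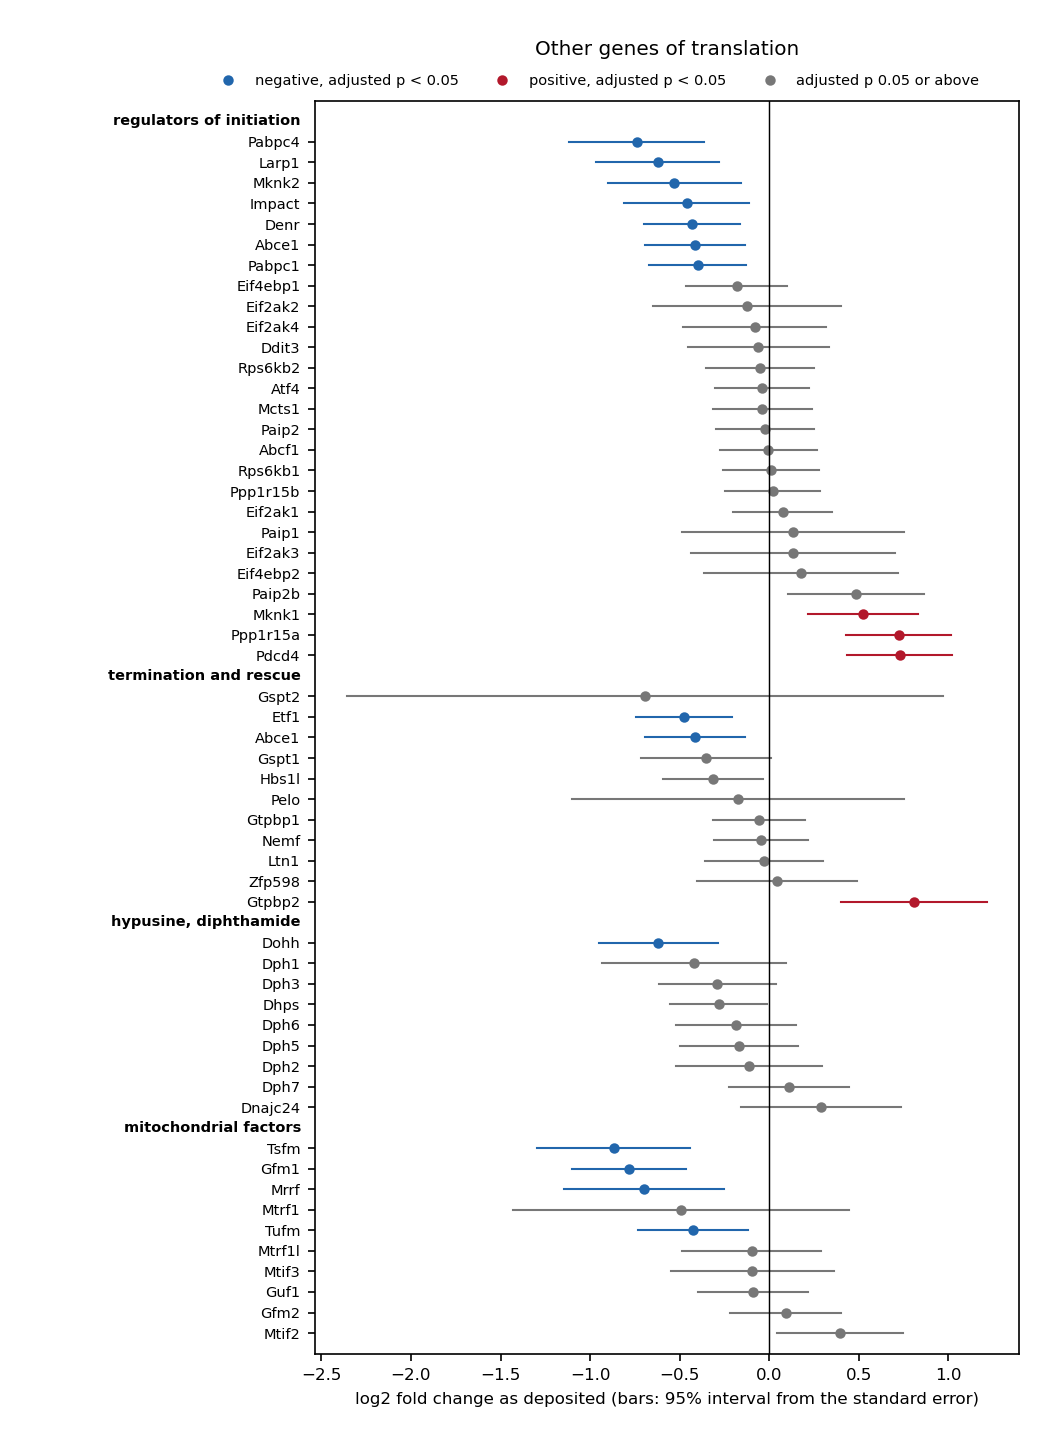
Log2 fold change as deposited (horizontal axis, points, with 95% intervals as bars) for the tested genes of 4 lists that act with the translation factors; Abce1 stands in 2 lists. Pdcd4, Ppp1r15a, Mknk1 and Gtpbp2 are the positive genes, in red, and Dohh is the only called gene among the hypusine and diphthamide enzymes.

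Of 9 genes for hypusine on eIF5A and diphthamide on eEF2, 1 was called, a negative share of 11.1% against 13.5% of all tested genes. Dohh, the hydroxylase that completes hypusine on eIF5A, had -0.62 ± 0.17 (adjusted p = 0.00222) in the authors' deposited table, the sign of its substrate gene Eif5a. Dhps, which makes the preceding intermediate, had -0.28 ± 0.14 (adjusted p = 0.128) in the authors' deposited table. The 7 diphthamide genes lay between -0.42 and 0.29 without a call, and Dnajc24, at the upper end, was positive (0.63) with the length and GC trends taken out. Of 11 termination, recycling and rescue genes, 2 were negative (18.2%) and 1 positive (9.09%), against 13.5% and 11.0% of all tested genes, and their median was -0.17. Etf1, the release factor, had -0.47 ± 0.14 (adjusted p = 0.00409), Abce1, the recycling ATPase, -0.42 ± 0.14 and Gtpbp2, a rescue GTPase, 0.81 ± 0.21 (adjusted p = 0.000979) in the authors' deposited table. With the length and GC trends taken out, Etf1 no longer passed (-0.34), which left 1 negative gene.

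Mitochondria hold their own translation factors, and 4 of the 10 tested were negative (40%) and 0 positive, against 13.5% and 11.0% of all tested genes, with a median of -0.26. Tsfm, the exchange factor of the mitochondrial tRNA carrier, had -0.87 ± 0.22 (adjusted p = 0.000727) and Gfm1, the mitochondrial translocase, -0.78 ± 0.16 (adjusted p = 3.29e-05) in the authors' deposited table. Mrrf, the recycling factor, had -0.70 ± 0.23 (adjusted p = 0.0133) and Tufm, the tRNA carrier itself and the most abundant of the list, -0.43 ± 0.16 (adjusted p = 0.0298) in the authors' deposited table. The interval of Tsfm, from -1.29 to -0.44, overlapped that of Tufm, from -0.73 to -0.12, and the difference was not tested. Mtif2, the mitochondrial initiation GTPase, had 0.40 ± 0.18 (adjusted p = 0.0918) in the authors' deposited table. With the length and GC trends taken out, Tufm no longer passed (-0.27) and Mtif2 was positive (0.52), which gave 3 negative genes and 1 positive.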

How the data were processed

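The 6 samples (3 WT, 3 KO) were bulk RNA-seq of lung ILC2s, made per the labels' protocols with SMART-Seq HT for cDNA and TruePrep V2 for libraries. The submitters' processing notes name HISAT2, Cufflinks and the build mm10. How reads were counted, and on which annotation and strand, no source used here states. Per the file headers, the deposited columns hold the normalized count signal of a gene as its mean, its log2 fold change and SE, the score of the test, its p-value and the adjusted form of that p-value. The score equalled the fold change over its SE to within 2.4e-07, and the adjusted p a Benjamini-Hochberg adjustment to within 7.6e-07. An adjusted p was present for 14961 genes, with means of at least 10.46. The table also has 12 per-sample columns whose 6 names match no label. They entered no result, so that depth per sample was not analysed here and the deposited SE gives the precision (median 0.233 over tested genes). The planned fit to counts and its alternatives were therefore not run. Which libraries entered the authors' fit is not given, and the p-values measure only the spread between those libraries, which may be technical.

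Members and lists were chosen with earlier results of these data known. Named were the called members, the most abundant member of each role, paralogues, and of each other list the 4 called genes with the smallest p and the most abundant gene; further list genes, the split of eIF3, the breakdowns by length and abundance, the interval counts, the share of 50-base windows the protein-coding promoter background and the promoters shown were chosen after values were seen. Mtrfr had no row under that symbol. Positions and exonic lengths came from GENCODE M21 (mm10), in which all 57 members were found, and GC content from the longest transcript, since no genome sequence was used. Trends were removed with lowess (fraction 0.3) over 13036 genes. Shared 50-base windows compared a member's longest transcript with transcripts of other genes on the same strand. The code for the call count and the trend removal was tried on simulated data. The simulated errors were independent between genes, unlike those of genes measured in the same libraries, so this trial bears on the code alone. Tables were handled with pandas 2.3.3 and numpy 2.4.6 in Python 3.11.15, trends with statsmodels 0.14.6, intervals with scipy 1.17.1 and plots with matplotlib 3.10.9.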

Additional observations from a re-analysis of the deposited data

How the results depend on the processing

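No paired analysis was possible because the per-sample columns matched no label, and for the same reason no replicate could be left out, no count model was fitted and no other normalization was run. The 25 negative members became 15 at an adjusted p below 0.01 and 9 when at least 1.5-fold was also required, and the 1 positive member, Eef2kmt, became 0 under both. With the other 6 settings (adjusted p below 0.1, adjustment over every gene with a p-value or over protein-coding genes, a mean of at least 100 normalized counts, centring on the most abundant 25%, and length and GC trends taken out) the negative members numbered 20 to 28 and the positive member stayed 1. The median of members ranged from -0.34 to -0.26. The most abundant 25% of genes, used for centring, had a median of -0.0373. With the length and GC trends taken out, uncalled values changed sign for Eif1b (0.14), Eif2b2 (0.15), Eif4g2 (-0.0461), Eif4g3 (-0.0475), Eif4ebp1 (0.0403), Ddit3 (0.24), Atf4 (0.10), Mcts1 (0.28), Paip2 (0.12), Rps6kb1 (-0.0572), Pelo (0.0113), Gfm2 (-0.0418), Mtrf1l (0.0545) and Rora (-0.0265). After centring, Eef2k (0.0272), Paip2 (0.0137), Abcf1 (0.0323) and Ltn1 (0.00689) changed sign. The cause of each change was not tested. SEs of members ran from 0.11 to 0.634, and small differences in Eif3j2, at the upper end, were not detectable.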
